A study of Caenorhabditis elegans with 4 samples.

Results

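Worms exposed to bisphenol A (BPA) were compared directly with worms exposed to NP, read here as nonylphenol since the labels give only the abbreviation. The comparison used 2 of the study's 4 arrays (Affymetrix C. elegans Genome array, 1 colour), chosen by their labels, and 8943 detected genes out of 17118 genes with a probe set of their own. All worms were wild-type Caenorhabditis elegans hermaphrodites, young adults from age-synchronized cultures grown on the OP50 strain of Escherichia coli. Both groups were kept for 24 h at 20 °C in K-medium, a solution of potassium and sodium chloride, with no food, so that age, fasting and medium were shared. Each chemical was dosed at 1/100 of its own 24 h LC50, the concentration lethal to the median worm, so the molar doses of the compounds differed and their values are not in the sources used here. The array of unexposed worms was not used, because the labels do not say that those worms were starved or held in the medium. The array of worms exposed to the phthalate diester DEHP, also unfed for 24 h, is given only as a side value. Each side had 1 array of RNA from whole worms, so there is no replicate error and no test, and every difference below describes these arrays. With such RNA, fewer cells of a type and less transcript per cell cannot be told apart.

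BPA carries a pair of phenol rings joined by a bridging carbon, whereas nonylphenol has a lone phenol ring with a long alkyl chain. Both are studied as industrial chemicals that interfere with hormone signalling in animals. In a starving worm, stored fat is freed by lipases and burnt by beta-oxidation, for which the acyl-CoA synthetase ACS-2 and the dehydrogenase HACD-1 are well-known enzymes. Fat is built up by the synthase FASN-1 and its partner POD-2, then modified by desaturases (FAT proteins) and elongases (ELO proteins), under regulators such as the SREBP homolog SBP-1 and the Mediator subunit MDT-15. Foreign compounds are commonly oxidized by cytochromes P450 or flavin monooxygenases, conjugated, and exported by ABC transporters.

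The median deposited intensity was 140 for BPA and 109 for NP. The vitellogenin genes, which mark adult hermaphrodites, were bright on both arrays, vit-2 with 10410 for BPA and 13120 for NP. Differences are log2 values, BPA minus NP, given relative to the median detected gene, and a gene was detected if the brighter array lay at or above the pooled median of 124 after the medians of the arrays were made equal. Values below the pooled 25th percentile of 26.98 were set to that floor. A dagger (†) marks a probe set whose probes can match several transcripts. As a measure of RNA quality, actin signal near the 3-prime end over that near the 5-prime end was 1.88 for NP and 1.22 for BPA. This ratio was also higher for NP in Gapdh (1.19 against 0.832), catalase (3.38 against 1.44) and ubiquitin (8.98 against 8.28), while gly14 was too dim to read. The part of this RNA-quality difference in the results was not tested. With the trend on gene length taken out, 5 of the 58 list medians given below changed sign, and those values stand beside the lists. Gene length here is the span of a gene on its chromosome, introns included, and not the length of its RNA. With loess, a smoothed trend on mean intensity, taken out, 7 changed sign.

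Among detected genes, more were at least 2-fold higher on the BPA array than on the NP array. Of 8943 detected genes, 587 were at least 2-fold higher on the BPA array, or 6.56%, and 207 were at least 2-fold higher on the NP array, or 2.31%. Together these were 8.88% of the detected genes. The 2-fold counts of the gene lists below are to be read against the shares of 6.56% and 2.31%. These shares varied with brightness, and the lists were not matched for it. In 5 equal groups by mean intensity, they were 16.2% and 4.36% in the dimmest and 2.29% and 0.671% in the brightest. At 3-fold the numbers were 125 (1.4%) and 46 (0.514%), together 1.91%, and at 4-fold 43 (0.481%) and 18 (0.201%), together 0.682%. The split depended on the settings for filter, centring and scaling. Over all 17118 genes, with no filter on dim ones, it turned to 642 higher with BPA and 1037 higher with NP. BPA-higher genes made up 73.9% of the 2-fold genes here, 78.4% with values as deposited, 58.7% after quantile normalization and 57.8% after loess. With array medians made equal and no further centring, the median detected gene lay at -0.34 and the share was 23.2%. Gene values with no filter on dim genes equalled those of this uncentred setting, such as 3.80 for hacd-1 in both. Filter and centring therefore changed together in the setting with no filter. Across the detected genes, the log2 intensities of the arrays had a Pearson's r of 0.933 and a Spearman's rho of 0.938, which is a description across genes that share both arrays.

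**Figure D1:**
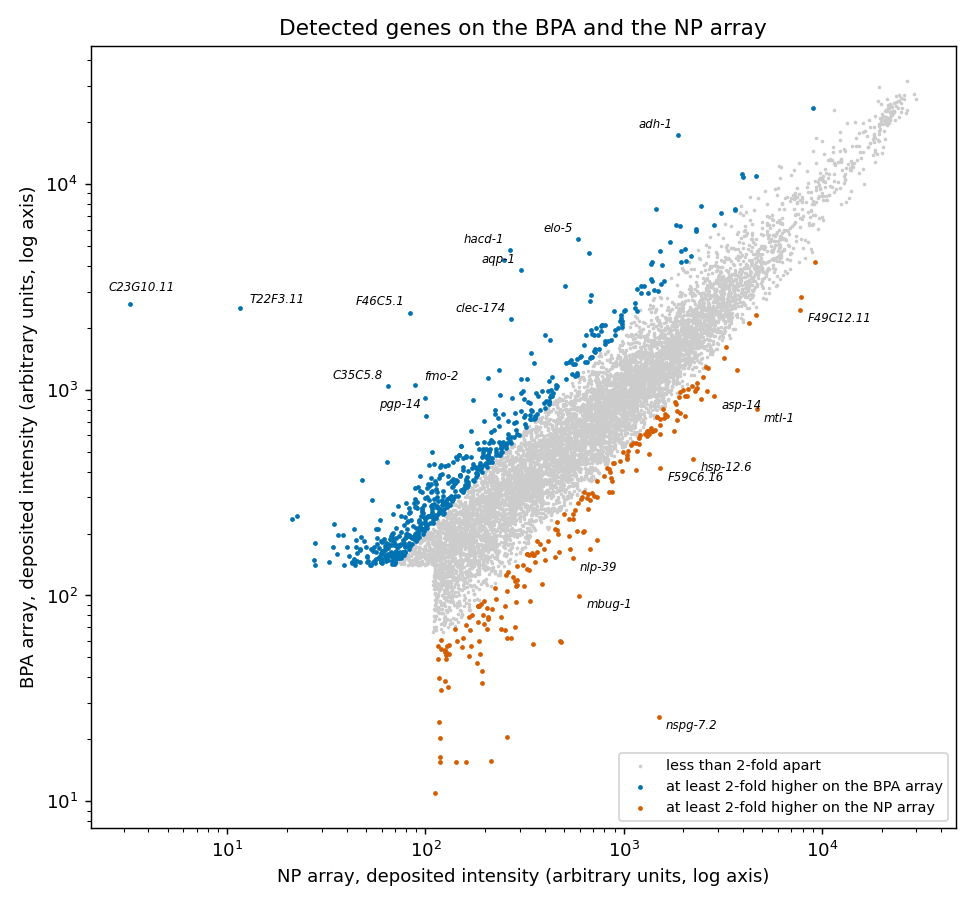
Deposited intensity of each detected gene on the NP array (horizontal, log axis) and the BPA array (vertical, log axis). Blue points are the 587 genes at least 2-fold higher on the BPA array and orange points the 207 at least 2-fold higher on the NP array, after centring on the median detected gene, and some of the genes with the largest differences are labelled.

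The 12 named genes highest on the BPA array relative to the NP array included a pair of fatty acid oxidation genes and a pair of elongase genes. The transcript of hacd-1, a 3-hydroxyacyl-CoA dehydrogenase, had an intensity of 4750 on the BPA array and 266 on the NP array, a difference of 4.14. That of acs-2 read 4292 and 248, a difference of 4.10, and its other probe set gave 2.79. The water and glycerol channel gene aqp-1 stood at 3797 and 305, a difference of 3.62. All 3 transcripts had an intermediate intensity on the DEHP array, where hacd-1 read 1959, acs-2 read 630 and aqp-1 read 1236.

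The flavin monooxygenase gene fmo-2 had an intensity of 1050 on the BPA array, 88.8 on the NP array and 60.1 on the DEHP array. It was high on the BPA array alone among the unfed arrays, 3.55 above NP. The chloride channel (bestrophin) gene best-1 behaved alike, with 912.8, 98.9 and 115.7 on the BPA, NP and DEHP arrays and a difference of 3.19. The alcohol dehydrogenase gene adh-1 read 17241, 1887.5 and 7556, a difference of 3.17. For the elongase genes elo-5† (3.18) and elo-6† (2.77) and the C-type lectin gene clec-174† (3.02), by contrast, it was the NP array that was low. Elo-5 read 5377 on the BPA array, 587 on the NP array and 6104 on the DEHP array. The P-glycoprotein gene pgp-14† (2.88, with 1.504 on its other probe set) and the genes F46C5.1† (4.80) and C35C5.8 (3.996) completed the 12 highest.

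Among genes at the floor on the NP array, C23G10.11 and T22F3.11† stood out. C23G10.11 had an intensity of 2619 on the BPA array against 3.22 on the NP array and 1.89 on the DEHP array, so it was at least 109-fold higher with BPA than with NP. T22F3.11 read 2490, 11.7 and 4.53, at least 103-fold higher, and its other probe set gave a log2 difference of at least 6.70. For both genes the BPA array was the bright one of the unfed arrays.

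The genes with the highest signal on the NP array relative to the BPA array included stress proteins. The metallothionein gene mtl-1, whose product binds metals, had an intensity of 4694 with NP, 805 with BPA and 702 with DEHP, a difference of -2.56. The small heat shock protein gene hsp-12.6 read 2243, 461 and 74.7, a difference of -2.299. On these, the NP array was the high one. The gene mbug-1 (-2.60) read 597 with NP and 99.6 with BPA, but 2860 with DEHP.

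The other members of the 12 were far-3† (-2.03), whose product binds fatty acids and retinol, Y105C5B.15 (-2.01), F59C6.16 (-1.90), the neuropeptide-like gene nlp-39 (-1.88), F49C12.11 (-1.69), W10G11.2 (-1.69), F44G4.3 (-1.64), the aspartyl protease gene asp-14† (-1.64) and use-1 (-1.64). F49C12.11 read 7792 with NP, 2446 with BPA and 2232 with DEHP, but its other probe set gave only -0.42. The gene nspg-7.2 was at the floor on the BPA array (25.7) and read 1502 on the NP array, at least 49.7-fold higher with NP. It was the only gene at the floor on the BPA array whose NP value reached the pooled 75th percentile of 600.

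**Figure D2:**
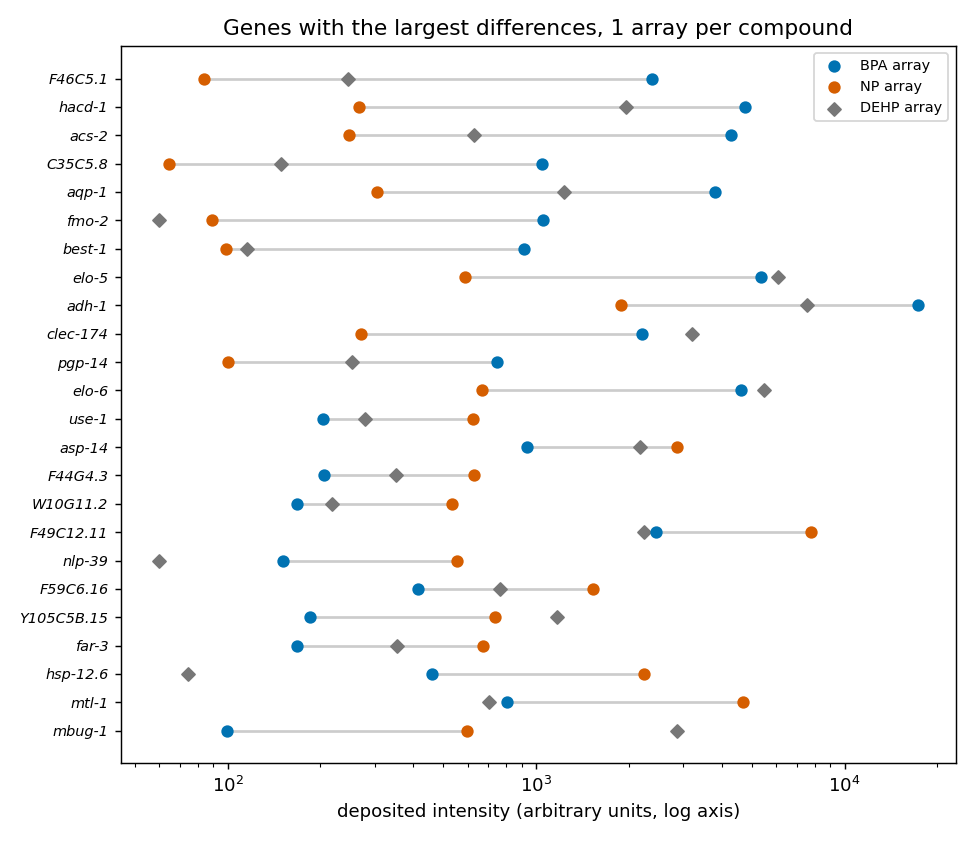
Deposited intensity (log axis) of the 12 genes highest on the BPA array and the 12 highest on the NP array relative to each other, with 1 array per compound. Grey diamonds give the DEHP array, which lies near the BPA value for elo-5 and elo-6, near the NP value for best-1, and beyond both for mbug-1.

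Fatty acid synthesis, desaturation and elongation genes were higher in BPA-exposed than in NP-exposed worms. Of 21 detected members, 7 were at least 2-fold higher on the BPA array and 0 on the NP array, with a median of 0.68 against 0 for all detected genes. Besides elo-5 and elo-6, whose products make branched-chain fatty acids, the delta-9 desaturase genes fat-5 (2.78) and fat-6† (1.66) and the elongase gene elo-2 (2.06) were past 2-fold. So were pod-2† (1.66), the acetyl-CoA carboxylase, and fasn-1 (1.44), the fatty acid synthase. The acetyl-CoA carboxylase transcript read 968 on the BPA array, 303 on the NP array and 783 on the DEHP array. That of fat-5 read 447, 64.1 and 388.

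Not every member lay on the BPA side. The delta-9 desaturase gene fat-7 had 358 on the BPA array and 688 on the NP array, a difference of -0.96, and the citrate lyase genes acly-1 (-0.27) and acly-2 (-0.21) were also below 0. The desaturase genes of polyunsaturated fatty acids, fat-1 (0.39), fat-3 (0.42) and fat-4 (0.57), were between. The list's median was 0.53 after the trend on gene length was taken out and 0.44 without the shared probe sets. The DEHP array was nearer to BPA than to NP for 90.5% of these genes, against 60.4% of all detected genes. Their median was 0.0039 for BPA minus DEHP and 0.61 for DEHP minus NP.

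Some regulators of these genes were higher on the same array. The Mediator subunit gene mdt-15 read 733 on the BPA array and 313 on the NP array (1.21), the SREBP gene sbp-1† read 791 and 418 (0.90), and the receptor gene nhr-80† read 163 and 77.7 (1.05). In contrast, nhr-49, the receptor that activates acs-2 on fasting, read 2422 and 2807, a difference of -0.23. The whole list of insulin, TOR and AMP kinase pathway genes, which holds these regulators, had a median of 0.23 over 30 detected members. Of these, 3 (10%, against 6.56% of all detected genes) were 2-fold higher with BPA and 0 with NP. The list's remaining 2-fold member was aakg-1† (1.35), a gamma subunit of the AMP-activated kinase, whose other probe sets gave 0.45 and -0.076. The FOXO gene daf-16† stood at 0.95, its other probe sets gave 1.33, -0.11 and 1.68, and without shared probe sets it was at -0.091. The list's median was 0.078 with the trend on gene length taken out.

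The oxidation list split between a few large differences and many small ones. Of 49 detected genes of fatty acid activation and oxidation, 8 were 2-fold higher on the BPA array and 1 on the NP array, with a median of only 0.12. Beyond hacd-1 and acs-2, the higher ones were the acyl-CoA dehydrogenase genes acdh-2 (2.05) and acdh-1 (1.34), the enoyl-CoA hydratase gene ech-7 (2.01), the synthetase genes acs-19† (1.36) and acs-5† (1.33), and acox-1.6† (1.32), a peroxisomal acyl-CoA oxidase. The lower one was acdh-6 (-1.09). Acdh-1 had 5932 on the BPA array, 2315 on the NP array and 10813 on the DEHP array.

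Lipases went the same way, with 4 of 20 detected members 2-fold higher on the BPA array, 0 on the NP array, and a median of 0.40. The lysosomal lipase gene lipl-3†, known to be induced by fasting, read 197 on the BPA array, 38.4 with NP and 13.3 on the DEHP array (2.34). Lipl-5 (1.59) had 5199, 1712 and 4794. The other lipase genes past 2-fold were lips-6 (1.63) and lips-17 (1.13). When the probe sets of each gene were averaged the list's median was 0.10.

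Lipid carriers differed little apart from far-3. Of 14 detected fatty acid binding genes, 0 were 2-fold higher with BPA and 1 with NP, and the median was 0.12. Lbp-9 stood at -0.70, far-7 at -0.54 and lbp-6 at 0.59. The 7 detected vitellogenin and yolk uptake genes had 0 members past 2-fold, with a median of -0.22. That median was 0.027 when the probe sets of each gene were averaged and -0.38 with the trend on gene length taken out. Vitellogenin genes are often read out in studies of estrogen-like chemicals in egg-laying animals. Vit-1 read 717 on the BPA array and 1029 on the NP array (-0.54), vit-5† read 25845 and 29908 (-0.23), vit-6† read 31467 and 27025 (0.20, and -0.098 on its other probe set), and the yolk receptor gene rme-2 stood at 0.25.

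The ABC transporter list, which includes exporters of foreign compounds, had many members past 2-fold on the BPA side. Lists of enzymes that oxidize and conjugate such compounds had few members past 2-fold. Of 27 detected ABC transporter genes, 9 were 2-fold higher on the BPA array and 0 on the NP array, with a median of 0.47. They were pgp-14†, pgp-1† (1.80), pgp-3 (1.31), pgp-4 (1.31), pgp-10 (1.22) and pgp-2† (1.09) of the P-glycoproteins, the multidrug resistance gene mrp-2† (1.38), abt-2 (1.31) and the peroxisomal gene pmp-5† (1.201). Most of these were dim, with NP intensities from 46.8 for pgp-1 to 343 for pmp-5. The ABC list held long genes, with a median span of 6755 bp against 2588 bp for all detected genes. Its median was 0.18 after the trend on span was taken out. With that trend out, the medians were 0.22 for UDP-glucuronosyltransferases, 0.35 for glutathione S-transferases and -0.20 for cytochromes P450. Pgp-14 stood at 2.74 after that step and abt-2 at 0.93.

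Cytochrome P450 genes had 0 of 26 detected members 2-fold higher with BPA and 2 with NP, with a median of -0.20. Both were at the floor on the BPA array: cyp-35A3 was at least 3.92-fold higher with NP and cyp-25A1 at least 3.88-fold, with NP intensities of 118 and 117 near the detection level. UDP-glucuronosyltransferases had 1 higher on each array among 25 detected genes. Ugt-17† stood at 1.196 and ugt-1 at -1.92, and the median was 0.20. Glutathione S-transferases had 0 and 1 among 23, with gst-20† at -1.26 and a median of 0.16. Short-chain dehydrogenases had none past 2-fold among 22, and a median of 0.13. Of 5 detected flavin monooxygenase genes, fmo-2 was the only one past 2-fold, fmo-5† (0.77) and fmo-3 (0.74) followed, and fmo-4 was at -0.33, with 0.31 on its other probe set.

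Nuclear hormone receptors, which include the sensors that switch on lipid and detoxification genes, had 11 of 85 detected members 2-fold higher with BPA and 0 with NP, with a median of 0.31. The largest differences were those of nhr-14 (1.53), nhr-114 (1.52), nhr-21† (1.47) and nhr-5 (1.22). Nhr-114, which is known to protect the germline when diet lacks nutrients, read 198 on the BPA array, 68.1 on the NP array and 567 on the DEHP array. The list's median was 0.13 after loess and 0.52 when only brighter genes were kept. Of 10 detected genes of steroid hormone synthesis and signalling, 2 receptor genes were 2-fold higher with BPA, nhr-14 and nhr-48 (1.07). The steroid receptor gene daf-12 was at 0.75, with 1.18 and 0.78 on its other probe sets, and let-767†, a steroid and fatty acid dehydrogenase, at 0.91. The list's median was 0.76, and 0.39 after the trend on gene length was taken out.

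**Figure D3:**
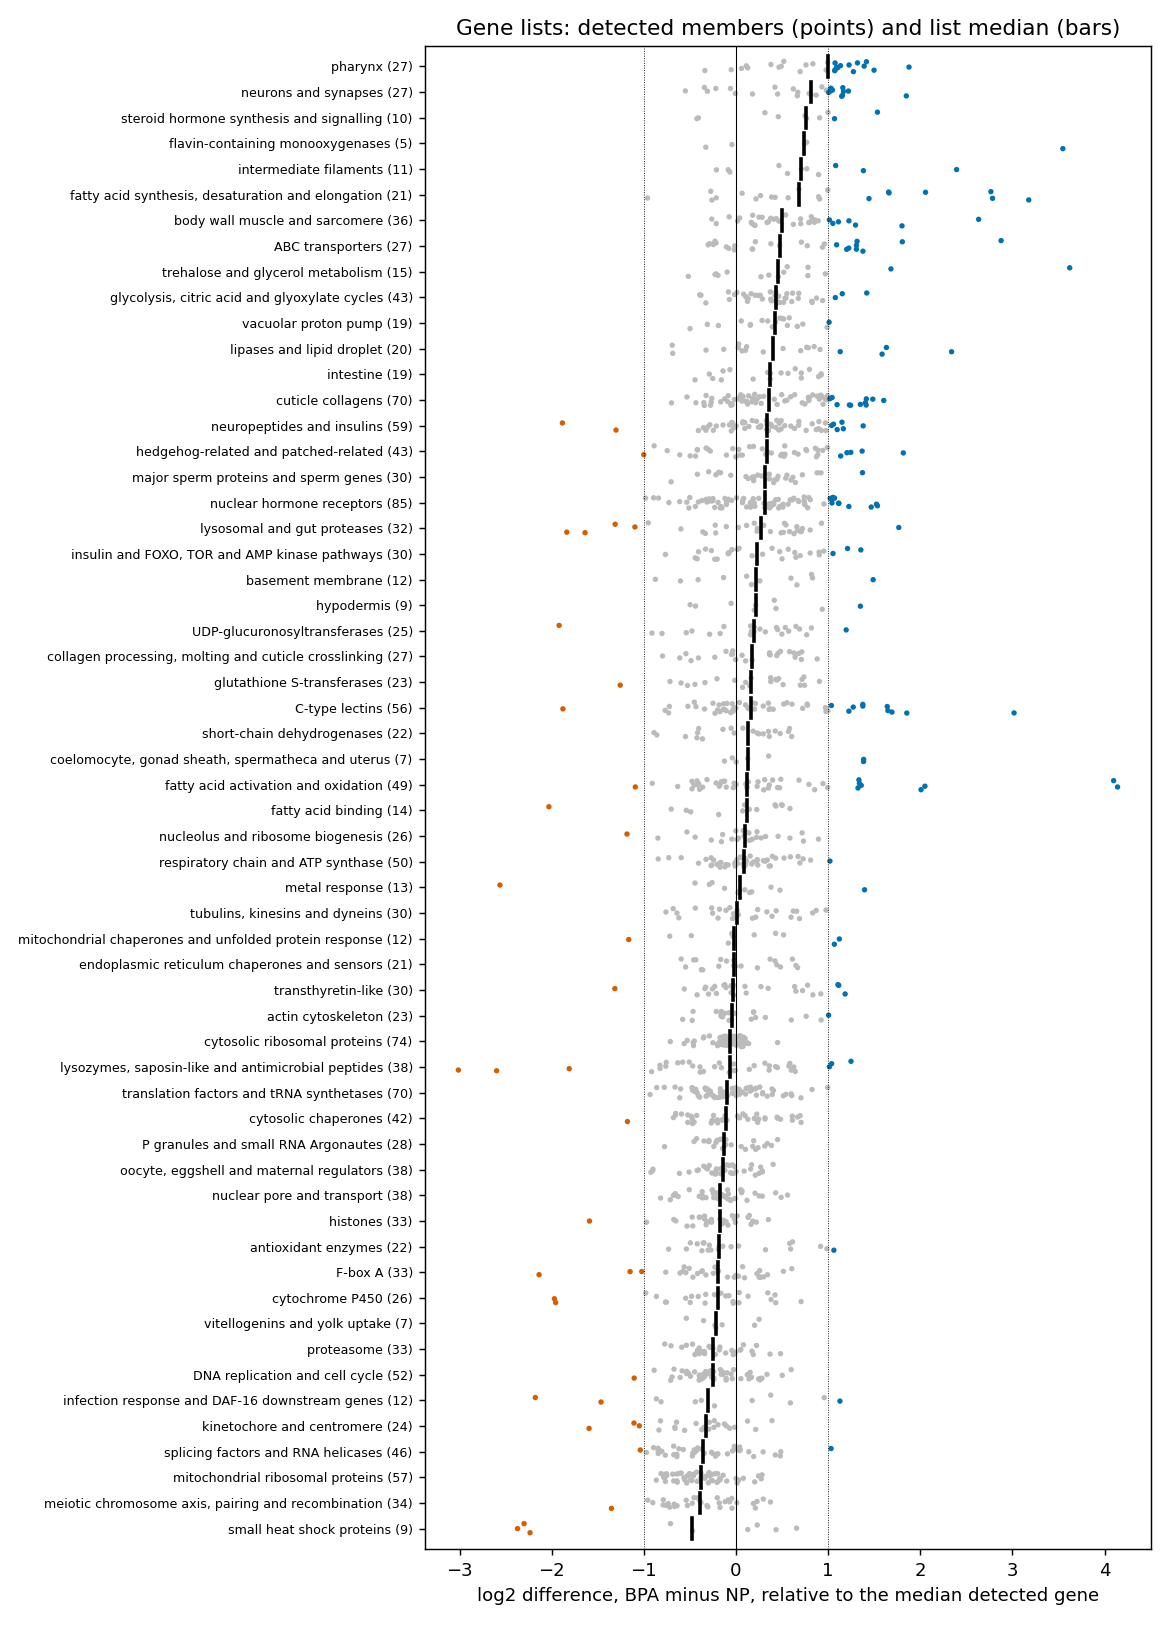
Log2 difference, BPA minus NP, of the detected members of each of 58 gene lists, with the number detected in brackets. Black bars are list medians; coloured points are at least 2-fold higher on the BPA array (blue) or the NP array (orange), and the lists run from small heat shock proteins at -0.47 to pharynx at 0.99.

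Small heat shock genes were higher with NP, but only some of them. Of 9 detected members, 3 were 2-fold higher on the NP array and 0 on the BPA array. Besides hsp-12.6 these were hsp-16.2, with 192 on the NP array and 37.7 on the BPA array (-2.37), and hsp-16.41, at least 4.71-fold higher with NP. Hsp-16 proteins are chaperones induced by heat and other proteotoxic stress. The other members lay between -0.71 for hsp-12.1 and 0.66 for hsp-12.2, and the bright sip-1† was at 0.13. The list's median was -0.47, and -0.22 with the trend on gene length taken out. It was 0.27 when only the brighter genes were kept, a setting without the hsp-16 genes that also moved the centre, so that sip-1 itself went from 0.13 to 0.27.

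Other stress systems showed few differences. Of 42 detected cytosolic chaperone genes, 0 were 2-fold higher with BPA and 1 with NP (dnj-15, -1.18), with a median of -0.11. The 21 chaperones and sensors of the endoplasmic reticulum had none past 2-fold and a median of -0.024. The chaperone genes of that compartment differed in direction, hsp-3† at 0.61 and hsp-4† at -0.59. Among 12 mitochondrial chaperone and stress genes, hsp-60† (1.12) and the protease gene spg-7 (1.07) were higher with BPA and the ubiquitin-like gene ubl-5† (-1.16) with NP. The mitochondrial hsp-6 had 3126 on the BPA array and 3186 on the NP array (-0.046), but 1.14 on its other probe set.

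Metal-response genes had 1 of 13 detected members on each side, cdr-1 (1.39) and mtl-1. The second metallothionein gene, mtl-2†, was at -0.44, and the list's median was 0.039. Of 22 antioxidant enzyme genes, gpx-5 (1.06), a glutathione peroxidase, was the only one past 2-fold, and the median was -0.19. Gpx-3 followed at 0.99.

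Immune effector genes differed one by one. C-type lectin genes had 10 of 56 detected members 2-fold higher with BPA and 1 with NP, with a median of 0.16. After clec-174, clec-4 (1.85), clec-72 (1.69) and clec-67 (1.65) were furthest to the BPA side, and clec-190† (-1.88) to the NP side. Clec-67 was brighter still on the DEHP array, at 901, than with BPA (371) or NP (117).

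Lysozymes and antimicrobial peptides had 3 of 38 detected members on each side, and a median of -0.064, which was 0.082 with the trend on gene length taken out. The lysozyme genes lys-4† (1.25) and lys-7† (1.01) were higher with BPA. The peptide genes fipr-24† (-3.01), abf-2† (-2.60) and spp-12 (-1.81) were higher with NP, at modest levels of 476, 348 and 120 there. Of 12 infection-response and DAF-16 downstream genes, irg-8 (1.13) was higher with BPA, and irg-5 (-2.18) and dod-24† (-1.46) with NP. For the whole list the median was -0.30, and -0.099 with the trend on gene length taken out.

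Pharynx, neuron and muscle lists had many members on the BPA side, while the intestine list had none past 2-fold. Pharynx genes, which serve the feeding organ, had 13 of 27 detected members 2-fold higher on the BPA array, 0 on the NP array, and a median of 0.99. The pharyngeal myosin gene myo-2† had 1133 on the BPA array and 305 on the NP array (1.88), the troponin gene tnt-4 had 1839 and 643 (1.498), and marg-1 had 260 and 96.2 (1.42). The other pharyngeal myosins, myo-1† (1.32) and myo-5† (1.13), and the troponin C gene tnc-2 (1.08) were also past 2-fold. So were abu-15† (1.39), abu-8† (1.23), abu-6† (1.104), abu-10 (1.09), pqn-75 (1.27), pqn-74† (1.08) and phat-5† (1.07). The pharynx list's median was 1.07 after the trend on gene length was taken out.

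Neuronal genes had 10 of 27 detected members 2-fold higher on the BPA array and 0 on the NP array, with a median of 0.81. They covered several transmitter systems. The vesicular glutamate transporter gene eat-4 read 249 and 68.3 (1.85, and 1.84 on its other probe set). For GABA, the vesicular transporter gene unc-47 stood at 1.17 and the synthetic enzyme gene unc-25 at 1.16. Of the release machinery, complexin gene cpx-1 (1.22), unc-10† (1.16), unc-13† (1.05) and unc-18 (1.02) were higher, with ida-1† (1.15) and the prohormone convertase gene egl-3 (1.00) of dense-core vesicles and the ciliary dynein gene che-3† (1.03). Neuronal genes were long, with a median span of 6087 bp, and the list's median was 0.64 with the trend on span taken out.

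Neuropeptide and insulin genes, which are short (median span 1146 bp), had a median of 0.34 over 59 detected members. Against shares of 6.56% and 2.31% over all detected genes, 6 (10.2%) were 2-fold higher with BPA and 2 (3.39%) with NP. Flp-3 (1.38), nlp-21† (1.17), ins-23 (1.15), flp-13 (1.098), pdf-1 (1.06) and pdf-2 (1.04) were higher with BPA, and nlp-39 and ins-35 (-1.302) with NP. The list's median was 0.52 after the trend on gene length was taken out.

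Body wall muscle and sarcomere genes had 7 of 36 detected members 2-fold higher with BPA and 0 with NP, with 33 of 36 above 0 and a median of 0.50. The calponin-like gene clik-2 read 3194 on the BPA array and 509 on the NP array (2.63), and 1.13 on its other probe set. The giant sarcomere proteins twitchin, unc-22 (1.80), and obscurin, unc-89 (1.297), were next, then alpha-actinin atn-1† (1.23), the ryanodine receptor unc-68† (1.11), clik-3 (1.05) and the body wall myosin unc-54† (1.01). With the trend on span taken out, unc-22 stood at 1.24 and unc-89 at 0.65, while the list's median was 0.49. Intestine genes had 13 of 19 detected members above 0, none past 2-fold, and a median of 0.37, led by the GATA factor elt-2 (0.92) and act-5† (0.92), an actin of the gut.

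The DEHP array placed these tissues differently. Pharynx genes had a median of 0.85 for BPA minus DEHP and 0.11 for DEHP minus NP, and DEHP was nearer to BPA for 33.3% of them. For neuronal genes the medians were 0.65 and 0.088, with 22.2% nearer to BPA. The neuropeptide list had 0.43 and -0.12, with 32.2% nearer to BPA. By these medians, BPA was the high array of the 3. For muscle the medians were 0.25 and 0.38, and for intestine 0.021 and 0.40, with 66.7% of muscle and 57.9% of intestine genes nearer to BPA. The comparisons share arrays and are given side by side only.

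Epidermal genes also tended to the BPA side. Cuticle collagens had 11 of 70 detected members 2-fold higher with BPA and 0 with NP, with a median of 0.36, and 0.55 after the trend on gene length was taken out. The largest differences were those of col-159† (1.60), col-133† (1.48), col-98 (1.41) and col-147† (1.41). Dpy-13†, a cuticle collagen whose loss makes worms short, read 23376 on the BPA array and 9058 on the NP array (1.35), and the adult collagen col-19 was at 0.94. The 9 detected hypodermis markers had 1 member 2-fold higher with BPA, dpy-13 again, and a median of 0.21. Hedgehog-related and patched-related genes, many of them active in the epidermis at molts, had a median of 0.34 over 43 detected members. Against shares of 6.56% and 2.31% over all detected genes, 5 (11.6%) were 2-fold higher with BPA and 1 (2.33%) with NP. They were grd-10 (1.82), grl-21 (1.37), grl-4† (1.25), ptr-3† (1.204) and ptr-20 (1.14) against grl-15 (-1.001).

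Genes of collagen processing and molting had none past 2-fold among 27 and a median of 0.18. Basement membrane genes had 1 of 12, the collagen XVIII gene cle-1 (1.49), and a median of 0.21. That list had the longest genes, with a median span of 8155.5 bp, and its median was -0.015 with the trend on span taken out and 0.77 among brighter genes. Intermediate filament genes, which stiffen epithelia and the gut wall, had 3 of 11 higher with BPA, 0 with NP, and a median of 0.71. Ifc-1 read 1246 on the BPA array, 234 on the NP array and 378 on the DEHP array (2.39), ifa-1 stood at 1.38 and ifp-1† at 1.08. The 7 detected genes of coelomocytes, gonad sheath, spermatheca and uterus had a median of 0.13, with ceh-18† (1.39) and fkh-6 (1.38) past 2-fold on the BPA side.

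Germline and proliferation lists other than sperm had medians slightly below 0. Cut into 5 equal groups by mean intensity, detected genes had a median of 0.30 in the dimmest group and -0.14 in the brightest. After loess on mean intensity the medians were -0.30 for meiotic, -0.17 for kinetochore and -0.12 for replication and cell cycle genes. The part of brightness in these medians was not tested. Meiotic chromosome genes had 28 of 34 detected members at or below 0, 1 of them 2-fold higher with NP (zhp-4†, -1.35, and -0.61 on its other probe set), and a median of -0.39. Kinetochore genes had 3 of 24 higher with NP and 0 with BPA, with a median of -0.32. The kinetochore component kbp-3 read 3709 with NP, 1244 with BPA and 1043 with DEHP (-1.59), followed by kbp-4 (-1.11) and mis-12† (-1.05). Replication and cell cycle genes had 1 of 52 higher with NP, the origin recognition gene orc-3 (-1.105), and 40 at or below 0, with a median of -0.25.

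Oocyte and eggshell genes had none past 2-fold among 38, a median of -0.14, and their largest differences in mex-1† (-0.92), puf-11 (-0.91) and car-1 (-0.90, with -0.69 and 0.065 on its other probe sets). P granule and Argonaute genes had none among 28 and a median of -0.13, with csr-1 at -0.78. The oocyte and Argonaute medians were 0.0009 and 0.0067 when only brighter genes were kept, and the oocyte median was 0.014 after loess. Histone genes had 1 of 33 higher with NP (his-67, -1.59) and a median of -0.17, which was -0.021 with the trend on gene length taken out. The 30 detected sperm genes had a median of 0.32, with msp-142† (1.37) the only one past 2-fold; of these, 27 were read by shared probe sets, and without shared probe sets the median was -0.040.

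Lists of the gene expression machinery had medians between -0.38 and 0.095. Mitochondrial ribosomal proteins had 49 of 57 detected members at or below 0, none past 2-fold, and a median of -0.38. Splicing factors had a median of -0.36 over 46 genes, with the Sm protein gene snr-4† (-1.04) higher with NP and the large splicing factor prp-8† (1.03) higher with BPA. The proteasome had a median of -0.25 over 33 genes, led by pas-2 (-0.77), and nuclear pore and transport genes had one of -0.17 over 38. With the trend on gene length taken out, these 3 lists were at -0.30, -0.081 and -0.28. After loess on mean intensity they were at -0.22, -0.11 and -0.037. Translation factors and tRNA synthetases had a median of -0.10 over 70 genes, and 0.027 among brighter genes. Cytosolic ribosomal proteins had one of -0.060 over 74 genes, all within 2-fold, and 0.17 after the trend on gene length was taken out. Of 26 nucleolar genes, rpac-19† (-1.18), a subunit of RNA polymerases I and III, was past 2-fold, and the median was 0.095, or -0.033 with the trend on gene length taken out.

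By their medians, carbon metabolism lists tended to the BPA side. Of 43 detected glycolysis, citric acid and glyoxylate cycle genes, 37 were above 0, with a median of 0.43. The 3 that were 2-fold higher with BPA made up 6.98% of the list, against 6.56% of all detected genes. They were aco-1 (1.42), the pyruvate carboxylase gene pyc-1† (1.15) and ogdh-1† (1.08), whose other probe set gave -0.34. Trehalose, glycerol and aquaporin genes had a median of 0.46 over 15 genes, with aqp-1 and aqp-7 (1.68) past 2-fold. That median was 0.28 after loess and 0.043 when only brighter genes were kept. Respiratory chain and ATP synthase genes had a median of 0.082 over 50, with asb-2 (1.02) the only one past 2-fold.

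Vacuolar proton pump genes had a median of 0.43 over 19 genes, with vha-5 (1.01) past 2-fold. Over the 4 genes whose brightest probe set was unshared the median was 0.10, and with shared probe sets left out before one was chosen per gene it was -0.18. Lysosomal and gut proteases had 1 of 32 higher with BPA and 4 with NP, with a median of 0.27. The cathepsin B-like cpr-4 read 6352 on the BPA array, 1844 on the NP array and 7680 on the DEHP array (1.77). The proteases nas-20 (-1.84), asp-14†, asp-12 (-1.31) and nas-11 (-1.097) were higher with NP. Transthyretin-like genes had a median of -0.031 over 30 genes (0.19 with the trend on gene length taken out) with 3 higher and 1 lower, F-box A genes one of -0.20 over 33 with 3 higher on the NP array, tubulin and motor genes one of 0.0060 over 30, and actin cytoskeleton genes one of -0.048 over 23.

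Differences ran with gene span and with chromosome. With the detected genes cut into 5 equal groups by span, the shortest group had a median of -0.24 and the longest 0.28, a difference of 0.52. Genes 2-fold higher on the BPA array had a median span of 3531 bp, and those 2-fold higher on the NP array one of 1422 bp. Of detected X-linked genes, 11.1% were 2-fold higher with BPA and 1.07% with NP, with a median of 0.32 over 1310 genes. On chromosomes I to V together the shares were 5.77% and 2.53%, with a median of -0.046 over 7625 genes. The BPA-higher share was lowest on chromosome I, with 4.14%.

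The X chromosome stood above chromosomes I to V in every group of gene span. In the shortest group the medians were 0.11 on X and -0.27 on the others, and in the longest 0.48 and 0.23. X-linked genes also lay above in every one of 5 groups by mean intensity, by medians of 0.43 against 0.26 in the dimmest and 0.13 against -0.16 in the brightest. Genes in none of the 58 lists showed the same contrast, with 0.30 over 1090 X-linked genes and -0.057 over 6098 others. In this species the X chromosome is known to hold few genes that the germline expresses. With the trend on gene span taken out, 10.2% of X-linked genes were 2-fold higher with BPA.

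**Figure D4:**
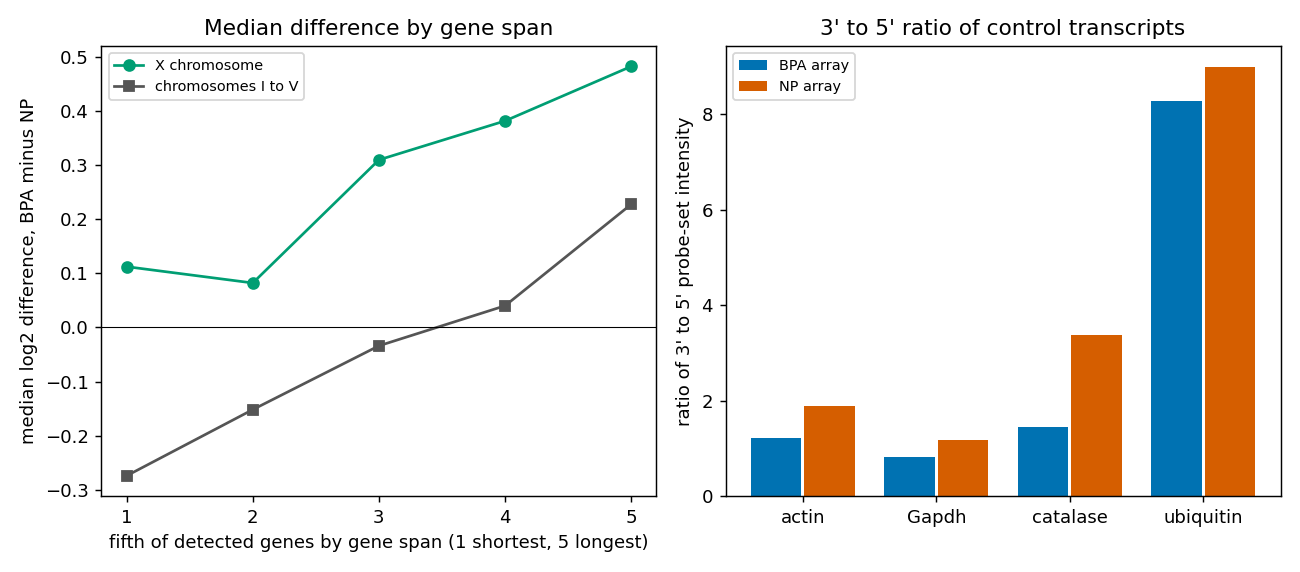
Left, median log2 difference, BPA minus NP, in 5 equal groups of detected genes by gene span for the X chromosome and for chromosomes I to V, with X above the others in each group. Right, ratio of 3-prime to 5-prime intensity of 4 control transcripts on each array, higher on the NP array for all 4.

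Dim genes made up many of the differences. Of the 587 BPA-higher genes, 43.4% had an NP value under the detection level, and of the 207 NP-higher genes 40.1% had a BPA value under it, against 10.05% of all detected genes. Detection rests on the brighter array, so genes chosen for a wide gap have a dimmer side under that level more often by construction. In the dimmest of 5 equal groups of detected genes, 16.2% were 2-fold higher with BPA and 4.36% with NP, and in the brightest 2.29% and 0.671%. Where a 2-fold gene had other detected probe sets, these lay on the same side for 78 of 89 BPA-higher genes, or 87.6%. The same held for 23 of 31 NP-higher genes, or 74.2%. All other probe sets were also past 2-fold for 46 of the 89 and 4 of the 31. These probe sets were read on the same arrays, and no same-side share over all detected genes is given. The 5 genes just past 2-fold on the BPA side lay between 1.0008 and 1.004 and the 5 just short of it between 0.995 and 0.999. On the NP side, the 5 genes just past 2-fold lay between 1.0009 and 1.008 in size and the 5 just short of it between 0.997 and 0.9999.

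The position of the DEHP value was set against the same BPA and NP values that chose the 2-fold genes, so that a wide gap makes a value between them more likely by construction. Of the 587 BPA-higher genes, 449 had a DEHP value between those of the phenols, 91 had one above both and 47 one below both. Of the 207 NP-higher genes, 155 lay between, 15 above both and 37 below both, where above and below refer to centred intensity. Over all detected genes 46.9% lay between, 26.5% above both and 26.5% below both. DEHP was nearer to BPA for 59.6% of the BPA-higher and 71.0% of the NP-higher genes, against 60.4% of all detected genes. Across all detected genes, 4.93% were at least 2-fold apart between BPA and DEHP and 7.46% between DEHP and NP, against 8.88% between BPA and NP. The first divides into 2.83% higher with BPA and 2.1% higher with DEHP, the second into 5.32% higher with DEHP and 2.14% higher with NP. Of the NP-higher genes 49.3% have only a sequence name, against 29.1% of the BPA-higher genes and 32.1% of all detected genes.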

How the data were processed

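Per the labels, total RNA was prepared with RNeasy columns, biotin-labelled and hybridised to 1 array per group. The labelling text names fibroblast cultures, against all other fields, and was set aside. The authors deposited linear intensity values for 22625 probe sets, which reach a mean near 500.1 on each array once the lowest and highest 2% are left out. The sources used here give no summary method, software or genome build, and there are no detection calls. After 77 control probe sets were set aside, 20766 probe sets had 1 gene symbol in the platform annotation. For each gene the brightest probe set was used, with gene spans and chromosomes from the WBcel235 gene table.

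Array medians were made equal on the log2 scale by shifts of -0.18 for BPA and 0.18 for NP, with a floor, a detection level and centring as in the report. With values as deposited the median detected gene differed by 0.037, so the centred differences are close to ratios of deposited intensities. No test was made. The 58 gene lists, the members and the rule for naming genes were chosen with earlier results of these data known. Named were the 12 genes per direction with the largest difference that were above the floor on both arrays, no dimmer than the pooled 75th percentile on 1 of them and of the same sign under quantile, deposited, loess and span-corrected values, then the largest bounds, and up to 4 members per list (all for lists of 12 or fewer). Other list members past 2-fold, and some pathway genes short of it, were named after their values were seen. The steps were tested on simulated data. Python 3.11.15, pandas 2.3.3 and statsmodels 0.14.6 were used. The depth of an array has no counterpart to reads; the number of arrays limits the precision.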

Additional observations from a re-analysis of the deposited data

How the results depend on the processing

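With 1 array per side, no replicate could be left out. No paired analysis was possible because each group has a single array. Removing the trend on protein length was not run, since no protein lengths were at hand. Without the floor the counts were unchanged, because a detected gene at the floor is past 2-fold by construction. The count of genes 2-fold higher on the BPA array was 240 with equal medians and no centring and 242 among brighter genes only, where fewer genes were counted. With no filter on dim genes, where gene values equalled those without centring, it was 642 and the split turned to the NP side. Under the other settings the count for the BPA array ran from 408 to 680. The count for the NP array was 793 with equal medians and no centring, 1037 with no filter on dim genes and 60 among brighter genes only, and otherwise ran from 166 to 298. The span difference was 0.0356 with no filter on dim genes and 0.41 to 0.55 otherwise. Without centring, whose omission moves every difference by the same 0.34, 20 of the 34 list medians above 0 lay below it. Those of at least 0.25 turned to -0.030 for nuclear hormone receptors, -0.00739 for hedgehog-related genes, -0.00566 for neuropeptides, -0.0254 for sperm genes and -0.078 for proteases. Among brighter genes the small heat shock median was 0.27. Without shared probe sets the median was -0.040 for sperm genes and -0.18 for the proton pump, and ogdh-1 stood at -0.32. Of 26 lists with a median of at least 0.25 in size, 23 kept their sign under every centred or as-deposited setting that kept a filter on dim genes, and 16 also without that filter, where the medians of the others were 0. Since gene values without the filter equalled those without centring, that setting was no separate check of the filter. The exceptions with the filter were small heat shock, sperm and proton pump genes. The cause of the other changes was not tested.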
